A study of Mus musculus with 6 samples.

Results

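The tetraspanin genes were taken by name. Every gene of the deposited table named Tspan with a number was used, plus Cd9, Cd37, Cd53, Cd63, Cd81, Cd82 and Cd151, which gave 27 of 25683 genes. Their RNA was read in 6 poly(A)-selected RNA-seq libraries, 3 from Nt5e knock-out (KO) cells (libraries 1 to 3) and 3 from wild-type (WT) cells (libraries 4 to 6). CD73, the product of Nt5e, is an enzyme of the cell surface that makes adenosine from AMP. Cells of both genotypes carry the label of primary smooth muscle lines of the mouse aorta. Both were grown in 10% fetal bovine serum and then held for 48 h in 0.5% serum, called a differentiation medium in the labels. The strain, age and number of mice and the way in which Nt5e was deleted are not stated in the labels.

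Tetraspanins are small proteins that cross the plasma membrane repeatedly and expose a large outer loop, which is held in shape by disulfide bonds. They bind sideways to integrins, proteases, receptors and each other, and so gather these proteins into membrane patches that act in adhesion, migration, shedding of surface proteins and release of extracellular vesicles. In the vessel wall they are known mostly from endothelium, platelets and smooth muscle.

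The hallmark of the outer loop is a Cys-Cys-Gly motif, and its codons are shown here because they are what the members share beyond their names. In transcripts of GENCODE release M21, an in-frame match after codon 100 was found in 27 of 27 members, at codons 128 to 211, in coding sequences of 204 to 332 codons. The 45 bases around the motif follow for 8 members to which the results return, with the Cys-Cys-Gly codons in capitals and 6 codons on each side.
Tspan8: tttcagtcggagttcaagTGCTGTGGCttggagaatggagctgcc
Tspan11: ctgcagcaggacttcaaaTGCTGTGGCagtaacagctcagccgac
Cd151: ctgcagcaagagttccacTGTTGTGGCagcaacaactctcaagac
Tspan15: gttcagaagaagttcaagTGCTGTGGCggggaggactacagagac
Tspan14: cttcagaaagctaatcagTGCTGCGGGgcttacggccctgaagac
Tspan2: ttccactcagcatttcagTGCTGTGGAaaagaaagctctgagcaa
Tspan7: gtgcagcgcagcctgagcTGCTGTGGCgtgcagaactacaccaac
Cd81: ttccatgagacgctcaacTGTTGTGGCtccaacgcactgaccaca
The motif was spelled in 11 ways over the 27 members. Cd151 and Tspan11 both have 253 codons with the motif at codon 155, and 66.14% of their coding bases and 88 of their codons were identical at the same position.

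Libraries held 19919095 to 23669252 exon reads. Nt5e itself had 22, 1 and 2 exon reads in KO libraries 1, 2 and 3, against 615, 688 and 486 in WT libraries 4, 5 and 6, as the labels say. The libraries were not equally alike. Spread beyond counting noise, given as a biological coefficient of variation, was 3.66% between KO libraries 2 and 3 and 3.49% between WT libraries 4 and 6, while KO library 1 differed from its fellow KO libraries by 44.6% and 45.1% and from the WT libraries by 43.7% to 48.0%. In their titles KO libraries 1 and 2 share the stem KO2 and WT libraries 5 and 6 share the stem WT11, while KO library 3 (KO5) and WT library 4 (WT10) have stems of their own, so the nearly identical pairs are not those that share a stem. The labels do not tell what a stem stands for, or whether libraries are separate cultures or mice, so every p-value here rests on the spread among these 6 libraries alone, and that spread may be technical. Smooth muscle markers were uneven. The 11 listed summed to 981 to 2546 CPM in KO and 960 to 1115 CPM in WT libraries, and KO libraries 2 and 3 held the highest sums. Among those picked after their values were seen, Cald1 had 18304 to 38508 reads in KO and 18919 to 19385 in WT libraries, and Acta2 had 1705 to 11583 in KO and 1263 to 2180 in WT. Myh11 had 5, 54 and 67 reads in KO and 3, 3 and 1 in WT libraries, Des had 3, 0 and 1 in KO and 0, 2 and 0 in WT, and Myocd had 4, 1 and 0 in KO and 1, 0 and 1 in WT. Fibroblast markers summed to 5534 to 17654 CPM in KO and 6001 to 6029 CPM in WT libraries (2 higher and 1 lower of 9 tested), and pericyte markers to 389 to 1054 CPM in KO and 228 to 246 CPM in WT libraries (3 higher and 1 lower of 6 tested). In each list 1 rise and 1 fall were called with each library left out, and without KO library 1 the fibroblast rises were 7.

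Tetraspanins changed in both directions. Of the 27 members, 24 had enough reads to be tested among 12660 genes, and 5 of them were higher and 5 lower in KO cells (adjusted p under 0.05 in edgeR's quasi-likelihood test, by the Benjamini-Hochberg method over all genes). Over all tested genes 14.1% were higher and 13.7% lower, 27.8% in all, beside 41.7% of the tested members. The higher members were Tspan18, Tspan2, Tspan7, Tspan14 and Cd81. The lower members were Tspan8, Tspan11, Tspan15, Cd151 and Cd82. In 13 of the 24 tested members (54.2%) all KO libraries lay above or below all WT libraries, against 49.7% of all tested genes. The median log2 fold change (KO over WT) was -0.15 over the tested members and 0.02 over all tested genes, and the median size of the change, whatever its sign, was 0.64 over the tested members and 0.34 over all tested genes. Changes of at least 2-fold were called for 6 members, a class that held 11.3% of all tested genes.

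**Figure D1:**
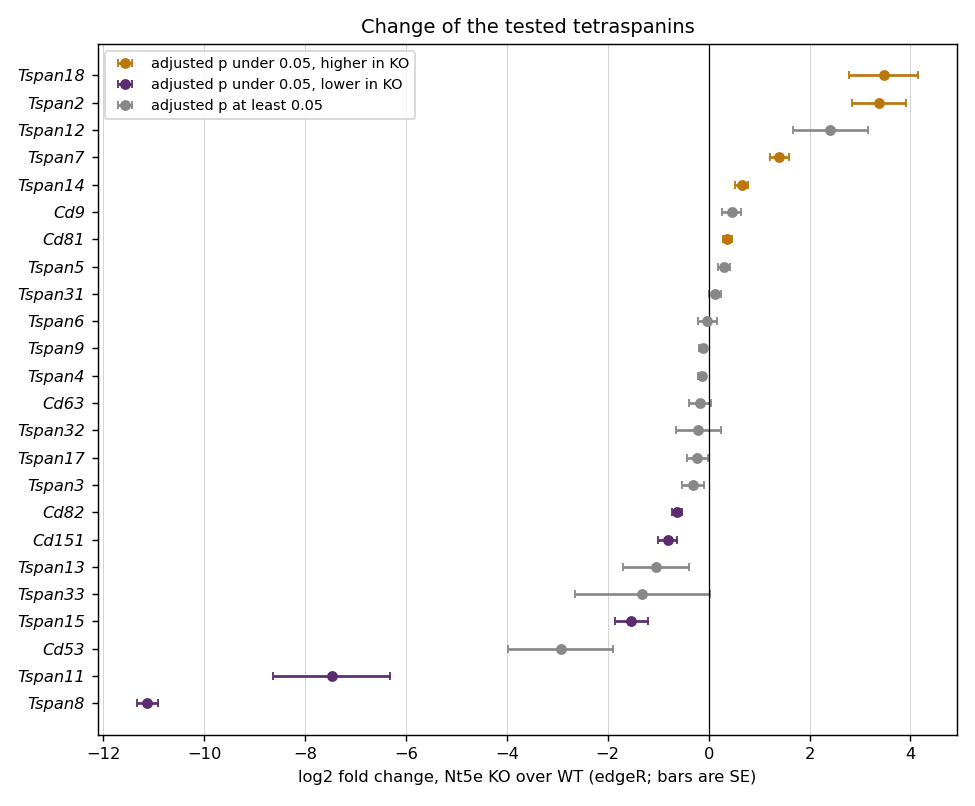
Log2 fold change of the 24 tested tetraspanins, Nt5e KO over WT, with bars for the standard error (edgeR, n = 3 libraries each). The 5 members called higher run up to 3.47 (Tspan18) and the 5 called lower down to -11.12 (Tspan8), and the other 14 are drawn in grey.

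These counts leaned on single libraries. Without KO library 1, which leaves the nearly identical KO libraries 2 and 3, 8 members were higher and 9 lower. In that setting 8486 of 12817 tested genes were called, so a call gained there does not set a member apart. The same holds for every gene or list described here without KO library 1. Without any other library the members called fell to between 1 and 2 higher and to 3 lower, with 1120 to 1671 genes called in all. With libraries 2 and 3 summed to 1 KO sample and libraries 4 and 6 to 1 WT sample, 0 members were higher and 1, Tspan8, was lower, where 17 genes passed in all. With the libraries of each title stem summed instead, also 2 samples per genotype, 6 members were higher and 6 lower, where 3797 genes passed; Tspan12 (edgeR adjusted p = 0.0166) and Cd53 (edgeR adjusted p = 0.037) joined the members called with 6 libraries. Tspan8, Tspan11, Cd82 and Tspan7 were called with each library left out in turn. Tspan2 was lost only without WT library 4 (edgeR adjusted p = 0.0572), and Cd151, Cd81, Tspan14, Tspan15 and Tspan18 were each lost without any of libraries 2 to 6. Their log2 fold changes kept their sign throughout.

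Levels between members were compared by RPKM, the authors' reads divided by exon length and depth. There were 8 members above 50 RPKM on average and 9 below 1 RPKM. Summed over all members, tetraspanin RNA came to 1264, 1235 and 1229 RPKM in KO libraries and 1424, 1567 and 1393 RPKM in WT libraries. Each KO library was under each WT library, but Tspan8 alone averaged 126 RPKM in WT and 0.0496 RPKM in KO libraries. RPKM is scaled by total reads, and scaling the test by total counts shifted the median log2 fold change of all genes by -0.09. The lower KO sums therefore do not show a fall across the members. The vesicle proteins Cd9, Cd63 and Cd81 together made up 62.9%, 71.8% and 72.8% of the summed RPKM in KO libraries. In WT libraries they made up 54.9%, 57.9% and 54.3%, so their share was larger in each KO library. These shares count Tspan8 in the sum, where it took 8.36% to 8.77% in WT and at most 0.00575% in KO libraries. The larger share therefore does not by itself show a rise of the trio.

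**Figure D2:**
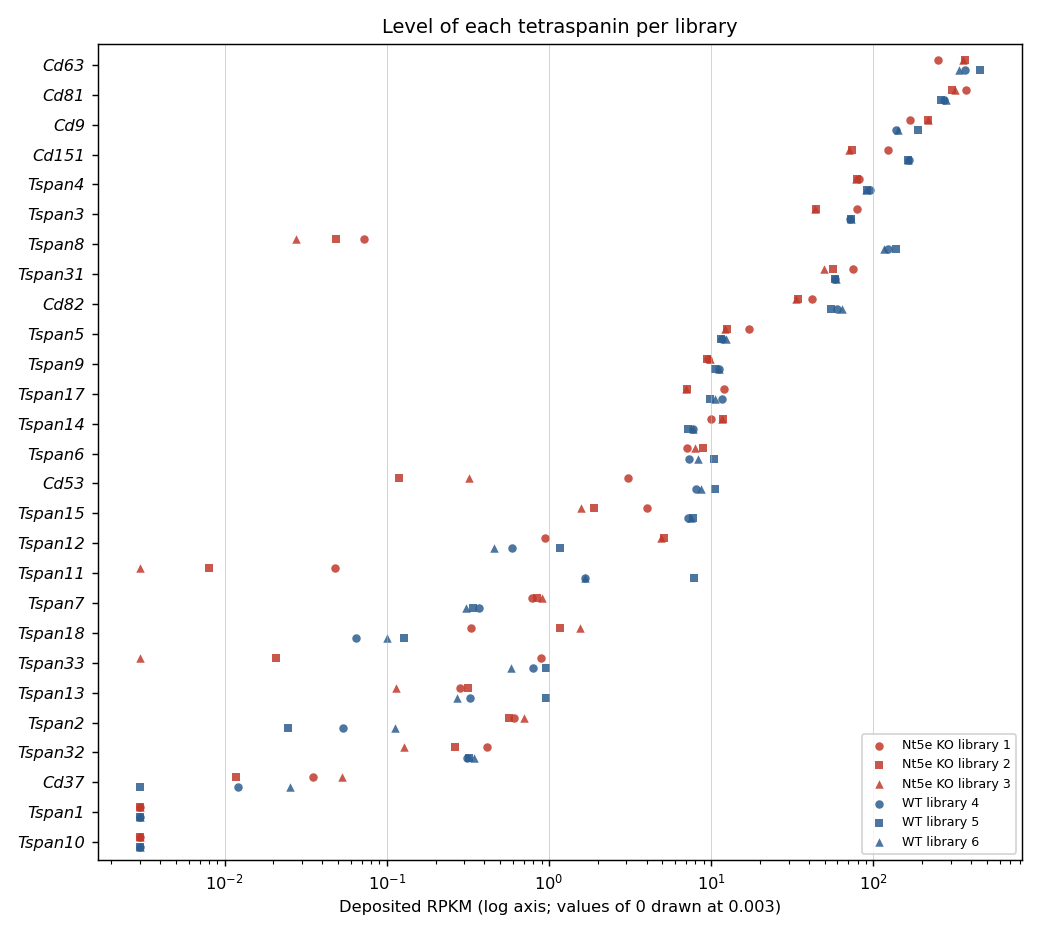
Deposited RPKM of the 27 tetraspanins in each library on a log axis, ordered by mean, with KO libraries in red above WT libraries in blue and values of 0 drawn at 0.003. Tspan8, at 0.0275 to 0.0727 RPKM in KO and 116 to 137 RPKM in WT libraries, has the widest gap between the genotypes among members with reads in every library.

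Tspan8 (chromosome 10, 115816832 to 115849893, plus strand, GRCm38) is a tetraspanin known from digestive epithelia and from carcinomas. It had 3, 2 and 1 exon reads in KO libraries 1, 2 and 3, against 4925, 6010 and 4465 in WT libraries 4, 5 and 6. Every KO library was near 0 and every WT library was rich in its RNA, where it was the fifth most abundant tetraspanin at 126 ± 10.7 RPKM (SD, n = 3). The summed 6 KO reads and 15400 WT reads give a ratio of WT over KO of 2370, with an exact 95% interval of 1089 to 6460 for counting error only. Its log2 fold change was -11.12 ± 0.21 (SE; edgeR adjusted p = 3.78e-05), the smallest p of all tested genes. Reads across exon junctions followed, with 3, 1 and 1 in KO and 3869, 4708 and 3506 in WT libraries. Introns of Tspan8 gave 0 reads in each KO library and 81, 96 and 89 in WT libraries. Taking 3 reads over the KO group as the floor, intron reads were at least 81.9-fold lower in KO cells, and the intron test called them too (edgeR adjusted p = 0.000166). Tspan8 was the only member still called with each nearly identical pair summed (edgeR adjusted p = 0.0395). The other epithelial member, Tspan1, had 0 exon reads in all 6 libraries.

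Markers of epithelia and of mesothelium, the epithelium that lines body cavities and covers the organs in them, were read beside Tspan8. Of 13 mesothelial and epithelial markers, 10 could be tested and 10 of those were lower in KO cells, with a summed level of 242 to 333 CPM in KO and 2708 to 2879 CPM in WT libraries (CPM, TMM-scaled counts relative to library size). Of the 10, 6 were called with each library left out (Upk3b, Krt19, Krt14, Lrrn4, Cdh1 and Bnc1), and the count was 6 without WT library 4, 5 or 6. Msln, Krt7, Wt1 and Krt8 were lost without WT library 4, for example, at edgeR adjusted p = 0.114, 0.122, 0.0812 and 0.0683. Epcam held 1, 0 and 0 reads in KO and 3, 1 and 4 in WT libraries, and Krt18 held 0 in each KO library and 6, 6 and 9 in WT libraries. The part of these genes in the Tspan8 result was not tested, and in bulk RNA fewer cells of a type and less RNA per cell cannot be told apart. Upk1b, a uroplakin with the tetraspanin fold that the naming rule leaves out, had 968, 212 and 141 reads in KO and 14543, 15390 and 14211 in WT libraries (log2 fold change -5.02 ± 0.75, SE; edgeR adjusted p = 0.00751). Its partner family member Upk3b was lower as well, at 48.4, 39.4 and 40.3 CPM in KO and 500, 484 and 516 CPM in WT libraries (-3.55 ± 0.11, SE; edgeR adjusted p = 0.000125). Both were called with each library left out. Among the other genes with the tetraspanin fold, Rom1 stood at -0.22 on the log2 scale (edgeR adjusted p = 0.283), and Upk1a and Prph2 had too few reads to test.

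Tspan11 (chromosome 6, 127887589 to 127953977, plus strand) is a close relative of Cd151 in sequence. KO libraries 1, 2 and 3 held 6, 1 and 0 of its exon reads, against 203, 1046 and 195 in WT libraries 4, 5 and 6. All KO libraries were near 0, while WT library 5 stood well above the other WT libraries. The summed 7 KO and 1444 WT reads give a ratio of WT over KO of 191 (exact 95% interval 92.2 to 475, counting error only), and the log2 fold change was -7.47 ± 1.17 (SE; edgeR adjusted p = 0.00848). Intron reads were 0, 1 and 0 in KO and 11, 177 and 21 in WT libraries (edgeR adjusted p = 0.0247), and library 5 again stood above the other WT libraries. The exon call was lost with limma-voom (adjusted p = 0.105).

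Cd151 (chromosome 7, 141467392 to 141471473, plus strand) is the tetraspanin that binds laminin-binding integrins most tightly. It had 6253, 3716 and 3148 exon reads in KO libraries 1, 2 and 3, against 8062, 8797 and 7709 in WT libraries 4, 5 and 6, or 204 ± 57.5 CPM in KO and 359 ± 2.27 CPM in WT cells (SD, n = 3 each). KO libraries 2 and 3 stood at 48.7% and 46.6% of the WT mean and KO library 1 at 75.3%, and the genotypes did not overlap. The log2 fold change was -0.81 ± 0.20 (SE; edgeR adjusted p = 0.0294). It ran from -1.08 without KO library 1 to -0.69 without KO library 3, and the adjusted p reached 0.1 with a library left out. Tspan4, a member enriched in migrasomes, the membrane bodies left on the retraction fibres of moving cells, ends this trio. It had 4755, 4600 and 4054 exon reads in KO and 5392, 5708 and 4931 in WT libraries, lower in each KO library but by a log2 fold change of -0.14 ± 0.07 (SE; edgeR adjusted p = 0.164). Scaling by total counts instead made it a call (-0.24, edgeR adjusted p = 0.0406), as did DESeq2 (adjusted p = 0.0331). Chid1 overlaps Tspan4 on the other strand, and 91.5% of the Tspan4 reads were unique.

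Integrins and other known tetraspanin partners did not move as a block. Of 16 tested, 3 were higher and 3 lower (5 and 8 without KO library 1), with a median log2 fold change of -0.22. The called chains of the laminin receptors that Cd151 binds were lower, except for Itgb1, which other receptors share. Itga6, its classical alpha chain partner, had 1.69, 4.10 and 4.52 CPM in KO and 39.1, 37.4 and 38.1 CPM in WT libraries (-3.48 ± 0.36, SE; edgeR adjusted p = 0.00296), a fall called with each library left out. Itga7, the laminin receptor chain of muscle (-4.56, edgeR adjusted p = 0.0246), and Itgb4, the hemidesmosome beta chain (-3.34, edgeR adjusted p = 0.0499), were lower, both lost when any library other than KO library 1 was dropped (adjusted p up to 0.0793 and 0.127). Itgb1, the beta chain common to most laminin and collagen receptors, was higher (0.68 ± 0.08, SE; edgeR adjusted p = 0.0043) and was called with each library left out. The other rises were Itga4 (2.74, edgeR adjusted p = 0.015; up to 0.0637 with a library left out) and Cd44 (1.13, edgeR adjusted p = 0.0207; up to 0.0842 with a library left out). Itga3, a further laminin receptor chain named after its values were seen, was not called. It had 137, 40.5 and 35.3 CPM in KO and 178, 162 and 188 CPM in WT libraries (-1.31, edgeR adjusted p = 0.122).

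**Figure D3:**
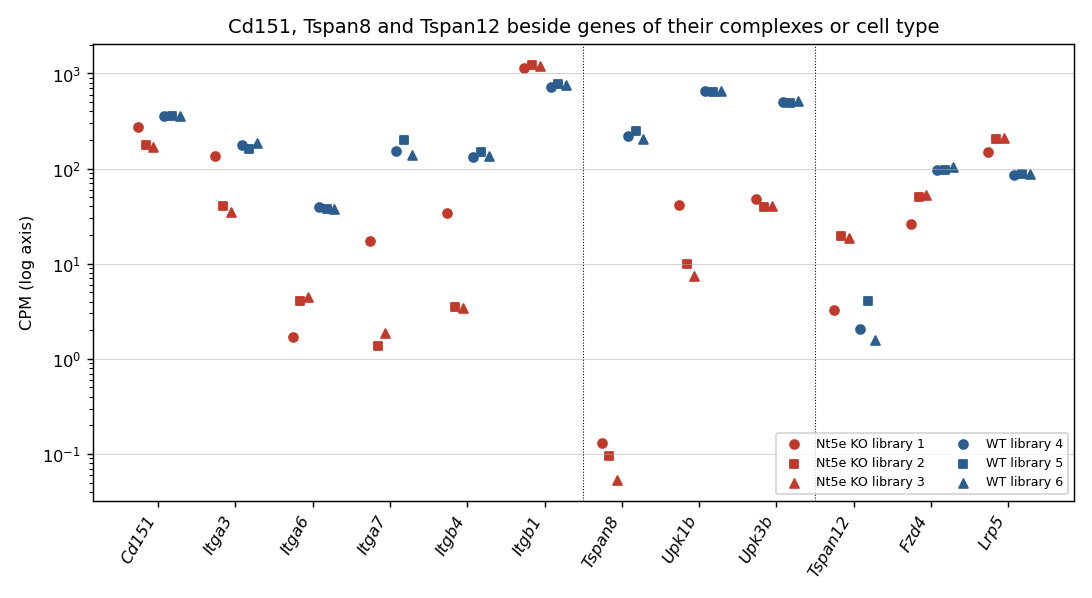
CPM on a log axis of Cd151 with 5 integrin chains, Tspan8 with Upk1b and Upk3b, and Tspan12 with Fzd4 and Lrp5, in Nt5e KO libraries (red, left) and WT libraries (blue, right). Cd151 spans 167 to 271 CPM in KO and 357 to 362 CPM in WT libraries, and KO library 1 lies nearest to WT for Cd151, Itga3, Itga7, Itgb4 and Tspan12.

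Cd82 (chromosome 2, 93419111 to 93463140, minus strand), known as the metastasis suppressor KAI1, fell modestly and evenly. It had 2678, 2175 and 1861 exon reads in KO libraries 1, 2 and 3, against 3639, 3681 and 3791 in WT libraries 4, 5 and 6. KO libraries stood at 71.1%, 62.9% and 60.7% of the WT mean, close to each other and clear of the WT libraries. The log2 fold change was -0.62 ± 0.10 (SE; edgeR adjusted p = 0.00833), and it ran from -0.70 to -0.57 with each library left out.

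Cd53, Cd37 and Tspan32 are the members best known from blood cells. Cd53 had 129, 5 and 12 exon reads in KO libraries 1, 2 and 3, against 329, 473 and 341 in WT libraries 4, 5 and 6. KO libraries spanned 23.7-fold in CPM, with library 1 the highest, yet all lay under the WT libraries. Its log2 fold change of -2.93 ± 1.04 (SE) was not called (edgeR adjusted p = 0.0847). Without KO library 1 it was -5.27 (edgeR adjusted p = 2.86e-05), and DESeq2 (adjusted p = 0.0098) and limma-voom (adjusted p = 0.0202) called it with all libraries. With a library other than KO library 1 left out it was not called (edgeR adjusted p up to 0.196), and with a title number as a covariate edgeR gave an adjusted p of 0.053 (the number after the letter p) or 0.0251 (the last number). Tspan32 overlapped between the genotypes, at 0.268 ± 0.143 RPKM in KO and 0.325 ± 0.017 RPKM in WT cells (SD, n = 3 each). Cd37 was not tested, with 3, 1 and 4 exon reads in KO and 1, 0 and 2 in WT libraries, and it lies over Tead2 on the other strand. Of 13 leukocyte markers, 5 had 0 reads in all 6 libraries, among them Ptprc, Tyrobp, Adgre1 and Itgam. The summed level was 6.41 to 16.9 CPM in KO and 4.49 to 7.09 CPM in WT libraries. Of 3 tested markers, 1 was higher (Lyz2, edgeR adjusted p up to 0.0728 with a library left out) and 1 lower (Cd68, called with each library left out).

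The TspanC8 group, named for the cysteines of its outer loop, escorts the sheddase ADAM10 to the cell surface and sets which proteins it cuts. Tspan15 (chromosome 10, 62185396 to 62231251, minus strand), the member that steers ADAM10 to N-cadherin, had 353, 166 and 122 exon reads in KO libraries 1, 2 and 3, against 614, 727 and 614 in WT libraries 4, 5 and 6. All KO libraries were below all WT libraries, with KO library 1 the highest of them. Its log2 fold change was -1.53 ± 0.33 (SE; edgeR adjusted p = 0.0212), between -2.0 and -1.3 with a library left out, where the adjusted p reached 0.0756. Tspan14 (chromosome 14, 40906445 to 40966807, minus strand), another escort of ADAM10, went the other way with 611, 718 and 627 exon reads in KO and 457, 462 and 437 in WT libraries. The genotypes did not overlap, and its log2 fold change was 0.65 ± 0.12 (SE; edgeR adjusted p = 0.0136; up to 0.0645 with a library left out). Tspan14 intron reads were higher too, with 27, 31 and 30 in KO and 17, 14 and 14 in WT libraries (0.96 ± 0.27, SE; edgeR adjusted p = 0.0495).

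Tspan5 and Tspan17, the escorts linked to Notch cleavage, were not called in exon reads. Tspan5 was the most abundant of the group, at 13.9 ± 2.78 RPKM in KO and 11.8 ± 0.39 RPKM in WT cells (SD, n = 3 each), with a log2 fold change of 0.31 ± 0.12 (SE; edgeR adjusted p = 0.0986). Its intron reads were called, with 208, 239 and 200 in KO and 144, 139 and 131 in WT libraries (0.65 ± 0.13, SE; edgeR adjusted p = 0.0163). Tspan17 averaged 8.71 ± 2.90 RPKM in KO and 10.7 ± 0.93 RPKM in WT cells and overlapped (edgeR adjusted p = 0.446), although it was called lower without KO library 1 (-0.49, edgeR adjusted p = 0.00454). Tspan33 split the KO libraries. It had 43, 1 and 0 exon reads in KO libraries 1, 2 and 3, against 37, 49 and 26 in WT libraries 4, 5 and 6, so KO library 1 resembled WT while libraries 2 and 3 were near 0. Its log2 fold change of -1.32 ± 1.34 (SE; edgeR adjusted p = 0.488) became -5.74 without KO library 1 (edgeR adjusted p = 0.00059). Tspan10, known from pigment cells, had 0 reads in all 6 libraries.

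As shares of the group's summed RPKM, Tspan15 took 9.07%, 5.68% and 4.83% in KO and 18.4%, 20.9% and 19.4% in WT libraries, and Tspan14 took 22.7%, 35.6% and 36% in KO and 19.9%, 19.2% and 20% in WT libraries. Tspan15 was the smaller of the pair in each KO library and about level with Tspan14 in WT libraries. The group's sum itself was 36.6 ± 6.51 RPKM in KO and 38.3 ± 0.98 RPKM in WT cells (SD, n = 3 each), with overlap. The protease they escort, Adam10, named after its values were seen, had 215, 240 and 234 CPM in KO and 256, 253 and 266 CPM in WT libraries (-0.17 ± 0.08, SE; edgeR adjusted p = 0.142). Of 13 tested genes of the ADAM10 and ADAM17 axis, 4 were higher (Cdh2, Jag1, Notch1 and Notch3) and 3 lower (Adam17, Dll1 and Tgfa), against 6 and 7 without KO library 1 and 0 and 0 without WT library 4. Cdh2, which encodes N-cadherin, was among the rises, at 290.4, 1215 and 1241 CPM in KO and 79.2, 52.2 and 83.1 CPM in WT libraries (3.68 ± 0.60, SE; edgeR adjusted p = 0.00984), and was lost only without WT library 4 (edgeR adjusted p = 0.0541). Each of the other 6 was lost with some library left out.

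**Figure D4:**
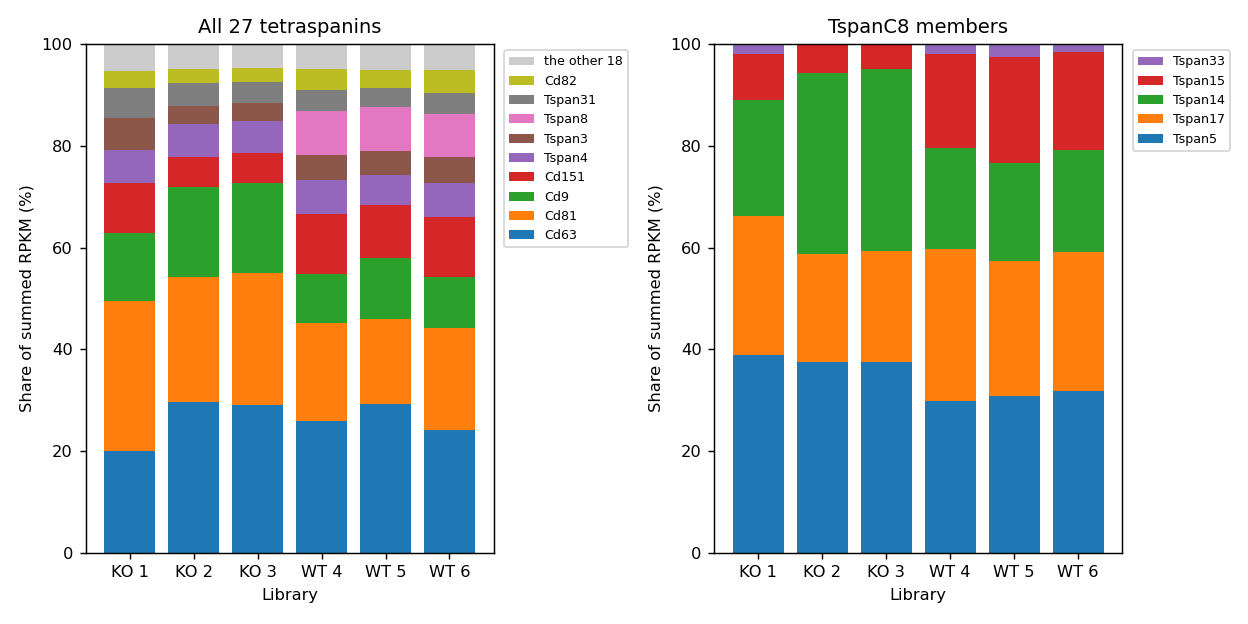
Share of summed RPKM held by each tetraspanin (left panel, the 9 most abundant members and the other 18 together) and by each TspanC8 member with reads (right panel), in % per library, KO libraries left and WT libraries right. Tspan8 fills 8.36% to 8.77% of the WT bars and at most 0.00575% of the KO bars, and Tspan15 is narrower in each KO bar than in each WT bar.

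The vesicle trio held the highest levels. Cd63, which sorts cargo in late endosomes and marks exosomes, was the most abundant member, at 325 ± 63.4 RPKM in KO and 387 ± 62.7 RPKM in WT cells (SD, n = 3 each). Its exon reads were 9940, 14373 and 12445 in KO and 14055, 19119 and 12311 in WT libraries, which overlapped (-0.16 ± 0.22, SE; edgeR adjusted p = 0.596). Cd81 (chromosome 7, 143052739 to 143067934, plus strand), a common marker of extracellular vesicles, had 15290, 12350 and 11491 exon reads in KO and 10811, 11291 and 10557 in WT libraries. In CPM it was 662, 582 and 611 in KO and 482, 464 and 489 in WT libraries, higher in each KO library. The log2 fold change was 0.37 ± 0.08 (SE; edgeR adjusted p = 0.024), but scaling by total counts ended the call (0.28, edgeR adjusted p = 0.0897), and with a library left out the adjusted p reached 0.106. Cd9, needed on the egg for fusion with sperm and common on vesicles, had 5039, 6459 and 5714 exon reads in KO and 3978, 5958 and 3913 in WT libraries, with overlap (0.45 ± 0.19, SE; edgeR adjusted p = 0.126). Without KO library 1 it was called (0.59, edgeR adjusted p = 0.00989).

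Genes of the vesicle route were measured beside the trio. Of 21 genes of exosome formation and release, 3 were higher (Sdc2, Vps4a and Rab7) and 2 lower (Sdc4 and Rab27b), with a median log2 fold change of -0.04. The syndecans, cargo receptors on this route, went opposite ways, with Sdc2 at 1.66 ± 0.23 and Sdc4 at -1.27 ± 0.14 (log2 fold change and SE; edgeR adjusted p = 0.00599 and 0.00316), both called with each library left out. Vps4a, Rab7 and Rab27b were each lost without any of libraries 2 to 6 (edgeR adjusted p up to 0.142, 0.154 and 0.0835), which left 1 rise and 1 fall, while without KO library 1 there were 7 rises and 8 falls. Among late endosome and lysosome genes, Scarb2 was higher (0.64 ± 0.10, log2 fold change and SE; edgeR adjusted p = 0.00873), and Gla and Timp1 were lower. With a library left out, the adjusted p of Scarb2 in edgeR reached 0.0575 without WT library 4 and 0.0511 without WT library 6. Gla was at -0.92 (log2 fold change; edgeR adjusted p = 0.0251) and was lost without KO library 2, KO library 3 or WT library 4, where the adjusted p reached 0.0855. Timp1, a protease inhibitor that binds CD63, was at -1.68 ± 0.45 (log2 fold change and SE; edgeR adjusted p = 0.0399) and was lost without any library but KO library 1. Of 13 DHHC palmitoyltransferases, the enzyme family that attaches palmitate to tetraspanins, edgeR called 0, with 2 at an unadjusted p under 0.05, DESeq2 called 1 and limma-voom 0, and without KO library 1 edgeR called 4 higher and 1 lower.

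Tspan12 partners Frizzled-4 in the receptor for norrin, a pathway of retinal vessel growth. It had 76, 412 and 347 exon reads in KO libraries 1, 2 and 3, against 46, 99 and 34 in WT libraries 4, 5 and 6. KO libraries 2 and 3 stood at 757% and 720% of the WT mean, while KO library 1, at 128%, fell within the range of WT libraries. The log2 fold change of 2.41 ± 0.74 (SE) missed the threshold (edgeR adjusted p = 0.0581), and it passed without KO library 1 (2.86, edgeR adjusted p = 0.000451) and with DESeq2 (adjusted p = 0.00334). It did not pass with limma-voom (adjusted p = 0.206), with the number after the letter p in the titles as a covariate (1.80, edgeR adjusted p = 0.236), with the last title number as a covariate (edgeR adjusted p = 0.106) or without any of libraries 2 to 6 (edgeR adjusted p up to 0.182). The receptor Fzd4 had 26.4, 50.9 and 53.0 CPM in KO and 97.3, 95.8 and 104 CPM in WT libraries (-1.19, edgeR adjusted p = 0.0238; up to 0.0842 with a library left out). The co-receptor Lrp5 had 150, 203 and 208 CPM in KO and 85, 88.7 and 88.1 CPM in WT libraries (1.10, edgeR adjusted p = 0.0047), a rise called with each library left out. Ndp, the gene of norrin itself, had 0, 0 and 1 reads in KO and 0 in each WT library.

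Members of low abundance made up 3 of the 5 rises. Tspan2 (chromosome 3, 102734529 to 102801513, plus strand), known from oligodendrocytes and, in humans, from contractile arterial smooth muscle, had 70, 65 and 71 exon reads in KO libraries 1, 2 and 3, against 6, 3 and 12 in WT libraries 4, 5 and 6. All KO libraries, library 1 included, were alike and above the WT libraries. In CPM it averaged 3.29 ± 0.42 in KO and 0.316 ± 0.220 in WT cells (SD, n = 3 each), and its log2 fold change was 3.37 ± 0.53 (SE; edgeR adjusted p = 0.00872). Whether smooth muscle markers have a part in the Tspan2 result was not tested. These markers summed to 981, 2546 and 2474 CPM in KO libraries 1, 2 and 3. In WT libraries the sum was 960 to 1115 CPM, most of it Cald1. Of 7 tested, 1 was higher (Smtn) and 1 lower (Cnn1). Smtn was lost without any of libraries 2 to 6 (edgeR adjusted p up to 0.119) and Cnn1 without any of libraries 2, 3, 4 and 6 (edgeR adjusted p up to 0.0879), whereas 5 of the 7 were higher without KO library 1. Acta2 itself had 1705, 11583 and 9859 reads in KO and 1553, 1263 and 2180 in WT libraries (edgeR adjusted p = 0.0633). Of 7 Schwann cell and oligodendrocyte markers, Sox10 had 0 reads in all 6 libraries, Pmp22 was higher (edgeR adjusted p up to 0.0561 with a library left out) and Mbp lower, and the sum was 249 to 469 CPM in KO and 249 to 281 CPM in WT libraries.

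Tspan18 (chromosome 2, 93201760 to 93334505, minus strand), which in human endothelial cells supports calcium entry through ORAI1, had 32, 113 and 132 exon reads in KO libraries 1, 2 and 3, against 6, 13 and 9 in WT libraries 4, 5 and 6. KO libraries 2 and 3 were highest, KO library 1 lay between them and the WT libraries, and the genotypes did not overlap. Its log2 fold change was 3.47 ± 0.69 (SE; edgeR adjusted p = 0.0167), with an adjusted p of up to 0.0781 with a library left out and of 0.0793 with limma-voom. Of 10 endothelial markers Tie1 and Cldn5 had 0 reads in all 6 libraries, the sum was 3.29 to 7.55 CPM in KO and 1.90 to 3.41 CPM in WT libraries, and of 2 tested, Kdr was higher (edgeR adjusted p up to 0.0674 with a library left out). Whether the endothelial markers have a part in the Tspan18 result was not tested.

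Tspan7 (chromosome X, 10485158 to 10596605, plus strand), a tetraspanin of neurons that is mutated in X-linked intellectual disability, had 134, 145 and 137 exon reads in KO and 61, 62 and 49 in WT libraries. The libraries of each genotype were close together and the genotypes far apart. In CPM it averaged 6.64 ± 0.76 in KO and 2.51 ± 0.23 in WT cells (SD, n = 3 each), and its log2 fold change was 1.40 ± 0.19 (SE; edgeR adjusted p = 0.00559), between 1.33 and 1.48 with each library left out.

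**Figure D5:**
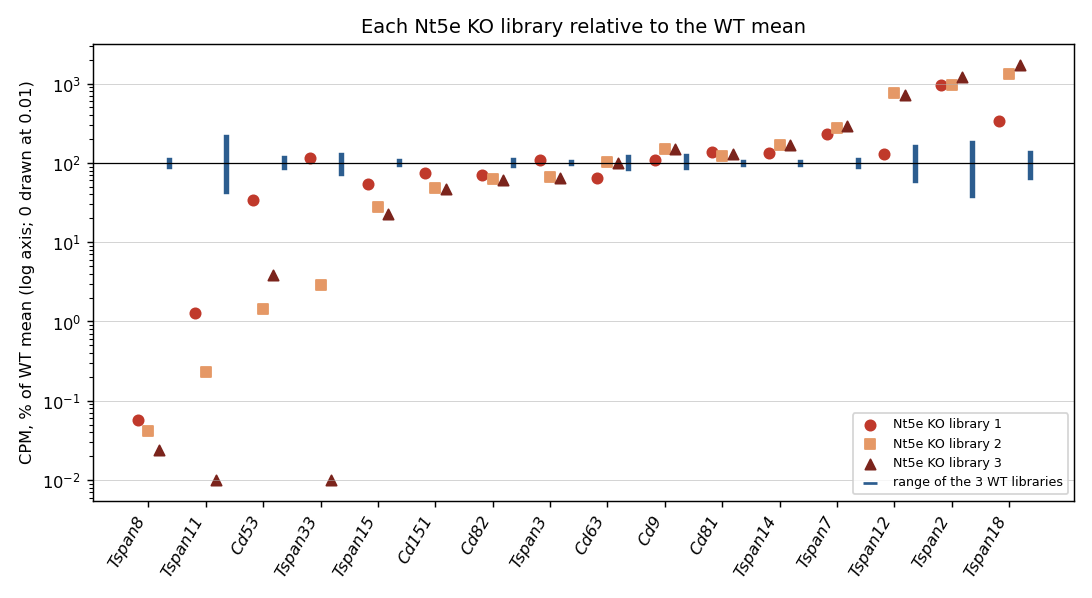
CPM of 16 tetraspanins in each Nt5e KO library as a percentage of the WT mean on a log axis, with blue bars for the range of the 3 WT libraries and values of 0 drawn at 0.01. KO libraries agree closely for Cd82, Cd81, Tspan7 and Tspan2, whereas for Tspan33, Tspan12 and Cd53 KO library 1 (115%, 128% and 33.6%) lies away from KO libraries 2 and 3.

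The remaining members were not called. Tspan3 (55.6 ± 20.5 RPKM in KO and 72.5 ± 0.54 RPKM in WT cells, SD, n = 3 each) had KO library 1 at 110% of the WT mean and libraries 2 and 3 at 65.9% and 65.3%, and without KO library 1 it was called lower (-0.61, edgeR adjusted p = 5.53e-05). Tspan31, whose human gene is co-amplified with CDK4 in sarcomas, averaged 60.5 ± 12.8 RPKM in KO and 58.2 ± 0.36 RPKM in WT cells and overlaps Cdk4 on the other strand, with 83.1% unique reads. Tspan9, known from platelets (9.58 ± 0.20 RPKM in KO and 11 ± 0.38 RPKM in WT cells), Tspan6 (8.01 ± 0.89 RPKM in KO and 8.67 ± 1.61 RPKM in WT cells) and Tspan13 (0.238 ± 0.109 RPKM in KO and 0.519 ± 0.383 RPKM in WT cells) each overlapped between the genotypes.

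Intron reads, a readout of unspliced RNA that exon counts do not use, could be tested for 15 members, and 4 of them were called, against 12% of the 10653 genes tested in introns. Tspan8 and Tspan11 were lower, and Tspan5 and Tspan14 were higher. Of the 10 members called in exons, 7 could be tested in introns, and 7 of these had the same sign there. Cd151, for example, had 97, 85 and 76 intron reads in KO and 124, 130 and 127 in WT libraries (-0.55, edgeR adjusted p = 0.0765), and Cd81 had 471, 385 and 381 in KO and 317, 330 and 328 in WT libraries (0.36, edgeR adjusted p = 0.222). Tspan4 differed in sign between the readouts, with 646, 939 and 884 intron reads in KO and 562, 657 and 529 in WT libraries (0.49, edgeR adjusted p = 0.0724). The intron count was 9 without KO library 1 and 1 to 2 without any other library. Tspan8 was called in introns with each library left out, whereas Tspan11 was lost without KO library 2 or 3, Tspan5 without KO library 2 or any WT library, and Tspan14 without any of libraries 2 to 6.

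Several members are neighbours on a chromosome, and the 4 closest pairs did not share calls. Tspan18 (higher) and Cd82 (lower) lie 84.6 kb apart with 0 protein-coding genes between them. Tspan11 (lower) and Tspan9 (not called) are 7.42 kb apart, also with 0 between. Cd151 (lower) and Tspan4 (not called) are 3.77 kb apart with 1 gene between. Tspan32 (not called) and Cd81 (higher) are 33.1 kb apart with 0 between.

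The 250 bases before the RefSeq transcript start are printed for Tspan8 and Tspan11, the members whose RNA was nearly lost in KO cells, and for Tspan2 and Tspan7, rises of more than 2-fold in which the KO libraries lay close together, so that promoters of falls and rises can be set side by side. They come from RefSeq on GRCm38.p6, 5′ to 3′ on the gene's strand, with each CG dinucleotide in capitals. The RefSeq start lies inside the deposited gene span given above for Tspan8, by 452 bases, so that its whole window falls within that span, and also for Tspan2 and for Tspan11, there by 33 bases, so that their windows overlap it in part. For Tspan7 it lies 42 bases before the span.
Tspan8, chr10:115817034-115817283, plus strand: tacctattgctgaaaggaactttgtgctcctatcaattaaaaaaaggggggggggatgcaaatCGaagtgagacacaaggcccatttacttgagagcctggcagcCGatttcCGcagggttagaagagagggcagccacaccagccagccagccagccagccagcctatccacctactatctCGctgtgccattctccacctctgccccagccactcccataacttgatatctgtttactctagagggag
Tspan11, chr6:127887372-127887621, plus strand: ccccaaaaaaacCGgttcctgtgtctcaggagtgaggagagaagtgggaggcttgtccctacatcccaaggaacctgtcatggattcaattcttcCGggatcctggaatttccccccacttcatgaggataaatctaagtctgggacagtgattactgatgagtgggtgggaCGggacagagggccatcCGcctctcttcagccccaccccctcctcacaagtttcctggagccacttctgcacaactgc
Tspan2, chr3:102734520-102734769, plus strand: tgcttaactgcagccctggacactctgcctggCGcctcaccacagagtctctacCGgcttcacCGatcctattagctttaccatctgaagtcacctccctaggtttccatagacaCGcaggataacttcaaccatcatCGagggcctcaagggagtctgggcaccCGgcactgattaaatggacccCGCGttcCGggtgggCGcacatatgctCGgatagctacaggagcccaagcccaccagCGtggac
Tspan7, chrX:10484866-10485115, plus strand: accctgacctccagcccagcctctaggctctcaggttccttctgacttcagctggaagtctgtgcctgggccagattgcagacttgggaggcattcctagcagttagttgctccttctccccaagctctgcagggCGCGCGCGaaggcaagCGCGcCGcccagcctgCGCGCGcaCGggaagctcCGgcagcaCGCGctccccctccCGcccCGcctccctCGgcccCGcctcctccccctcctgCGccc
Tspan8 and Tspan11 have 4 CG dinucleotides each, Tspan2 has 12 and Tspan7 has 19. Over the 26 members matched in the table the count ran from 1 to 33 with a median of 12.5, against a median of 6 over 32851 promoters, of which 44.4% had 4 or fewer. Only the most upstream start was used for each member, whereas the 32851 promoters count every listed start, also several of the same gene. Members and all promoters are thus not compared like for like, here or for the motifs below. Cd151, Cd82 and Tspan15, also lower in KO cells, had 12, 14 and 23.

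Short motifs were searched on both strands of the same windows. The GC box GGGCGG was present in 14 of 26 members and in 32.7% of all promoters. The short cAMP-response site TGACG was found in 2 members, Cd63 and Tspan31, and in 17.8% of all promoters. An AP-1 site (TGANTCA) occurred in 1 member, Tspan15, and in 6.75% of all, the TATAAA box in 1 member, Tspan12, and in 12.4% of all, and the TEAD site GGAATG in 2 members, Cd82 and Tspan7, and in 12.6% of all. The CArG box, the element of serum response factor in smooth muscle genes, was in 0 members and in 1.47% of all promoters. A match is a run of letters in this window and was not tested as a binding site.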

How the data were processed

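RNA was measured in 6 poly(A)-selected libraries, 3 per genotype. The authors deposited whole-number read counts per gene and library (exon, unique exon, junction and intron reads) and RPKM, with exon length and gene coordinates in columns of the same table, per the file headers. Coordinates are on GRCm38, which is the genome build named by the submitters' processing notes. No source used here names the aligner or counter or says whether strand was used, which leaves overlapping genes uncertain. Depth was 19919095 to 23669252 exon reads per library, 97.4% to 97.6% of them unique. Intervals cover counting error only.

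The test for exon reads of all genes was that of edgeR 4.0.16 under R 4.3.3 (filterByExpr with a minimum count of 10, TMM, quasi-likelihood F test, genotype as the only term, Benjamini-Hochberg adjustment at 0.05), and intron reads likewise. The SE is the log2 fold change divided by the square root of F. RPKM served for levels and shares, with no test. Members and gene lists were chosen with earlier results of these data known, and lists are described by counts and medians. Values per library are given for members called, for the 5 of highest RPKM and for those with a wide spread over KO libraries (over 4-fold, or with a library at 0). From each list, up to 3 rises and 3 falls are named, and other genes are marked where they were picked after their values were seen. Alternatives were DESeq2 1.42.0 and its size factors, limma-voom (limma 3.58.1), total counts, no filter, at least 50 reads in 3 libraries, unique reads, summed libraries, numbers in the library titles as covariates and leaving out each library. On counts simulated for the 12660 tested genes, true changes were recovered at 43.2% for 2-fold and at 77.4% for 4-fold with edgeR, while false ones made up 5.66% of its calls. The simulated libraries were independent, with 200 changed genes per run. They held no nearly identical pairs and no outlying library, so these rates need not hold for the real libraries. Promoters are from RefSeq and coding sequences from GENCODE M21. Plots used matplotlib 3.10.9.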

Additional observations from a re-analysis of the deposited data

How the results depend on the processing

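Over members and alternatives, 346 log2 fold changes kept their direction and their side of the threshold, 15 passed it newly, 38 no longer passed and 5 changed sign. With each library left out in turn, the members called higher ranged from 1 to 8 (5 with all libraries), the members called lower from 3 to 9 (5), the members called in introns from 1 to 9 (4) and all genes called from 1120 to 8486 (3524). In each case the highest count came without KO library 1. With libraries 2 and 3 (KO) and libraries 4 and 6 (WT) each summed to 1 sample, 0 members were called higher and 1 lower, and 17 genes in all, in a design with 2 samples per genotype. With title stems summed instead the counts were 6 higher, 6 lower and 3797 genes. Scaling by total counts shifted the median log2 fold change of all genes by -0.09 and gave 4 members higher and 6 lower, with 40.1% of all called genes higher in place of 50.7%. DESeq2 gave 6 higher and 7 lower, limma-voom 4 and 5, and the stricter filter 4 and 5. Leaving out a library changed the sign for members that were not called: the log2 fold change ranged from -0.274 to 0.0115 for Cd63, from -0.0134 to 0.231 for Tspan31, from -0.59 to 0.11 for Tspan32 and from -0.14 to 0.13 for Tspan6. The cause of these shifts was not tested. The labels number the libraries 1 to 6, so no number pairs a KO with a WT library, but the titles hold a number after the letter p (11 in libraries 1, 4 and 5, 12 in libraries 2, 3 and 6) and a last number (1 in libraries 1 and 5, 2 in the others) that occur in both genotypes. With the first as a covariate the same 10 members were called, 5 higher and 5 lower, among 3122 genes; with the last, 5 were higher and 6 lower, among 4510 genes, and Cd53 was added (edgeR adjusted p = 0.0251). At this depth Tspan1 and Tspan10, with 0 exon reads in all 6 libraries, were below detection, and Cd37 was too low to test.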
